A study of Mus musculus with 2 samples.

Results

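Pi16/Dpp4 fibroblasts of the mouse long bone periosteum were picked cell by cell from single-cell RNA counts. A cell entered when it passed quality control (at least 500 genes and 500 unique molecular identifiers, UMIs, each standing for 1 captured RNA molecule, and at most 10% mitochondrial UMIs), had a UMI of at least 4 of the 7 fibroblast genes Pdgfra, Clec3b, Mfap5, Gas1, Dcn, Cd34 and Tnxb, had no UMI of Ptprc or Tnmd, had at most 5 UMIs of Bglap2 and Ibsp together, and had at least 2 UMIs of Pi16 and Dpp4 together. Of 9169 cells that passed quality control, 5410 had no UMI of Ptprc, which encodes the leukocyte antigen CD45, and 140 of these were Pi16/Dpp4 fibroblasts. Library 1 held 11 of them and library 2 held 129. The classes used here are gates on a few transcripts and not an annotation by the authors.

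The labels give wild-type C57BL6 mice, 4 weeks of age, and a single condition for both libraries. Against that label, cells of library 2 held UMIs of the reporter EGFP and cells of both libraries held UMIs of tdTomato, including 718 tdTomato UMIs in the Pi16/Dpp4 fibroblasts of library 2. The periosteum was peeled from femurs and tibias, digested with collagenase and sorted on CD45, CD31, Ter-119 and DAPI for live cells that are neither hematopoietic nor endothelial. The study used the mouse cells to ask how its periosteal stem cell surface markers LRP1 and CD13 (the product of Anpep) appear outside human tissue. The labels do not say how many mice went into a library or whether the libraries came from separate animals, so every p-value below measures only the spread between 2 libraries, which may be technical.

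The periosteum has an outer fibrous layer of fibroblasts and an inner cambium layer that holds the cells able to form bone and cartilage. In many organs, fibroblasts that carry Pi16, a secreted peptidase inhibitor domain protein, and Dpp4, a membrane dipeptidase, lie in the adventitia around vessels and in fascia, and they are known there as a pool from which more specialized fibroblasts arise. No differentiation assay accompanied these libraries, so the transcripts bear on the identity of the cells and not on a progenitor function.

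The libraries stood apart before any gene was compared. Library 1 held 100808649 UMIs in 9932 barcodes, of which 6276 passed quality control, and library 2 held 33306452 UMIs in 3659 barcodes, of which 2893 passed. Despite the sort on CD45, 2980 of the passing cells in library 1 and 779 in library 2 had a Ptprc UMI. Among the cells without Ptprc, Pi16/Dpp4 fibroblasts made up 0.334% in library 1 (95% exact binomial interval 0.167% to 0.596%, 11 of 3296) and 6.1% in library 2 (5.12% to 7.21%, 129 of 2114), so the shares did not overlap within counting error. The rest of these cells differed in kind as well. At least 10 UMIs of Col1a1, Col1a2, Col3a1 and Sparc together (stromal transcripts) were held by 311 of 3285 in library 1 and 869 of 1985 in library 2. That mix enters both shares. The fibroblast gate as a whole, without the limit on Pi16 and Dpp4, held 16 cells in library 1 and 286 in library 2. The libraries shared 8 cell barcodes, 0 of them among the Pi16/Dpp4 fibroblasts.

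Depth within the Pi16/Dpp4 fibroblasts was similar in both libraries. The median cell had 11918 UMIs and 3603 genes in library 1 (5094 to 17293 UMIs) and 9662 UMIs and 3015 genes in library 2 (836 to 54800 UMIs). Their UMIs summed to 133135 in library 1 and 1313753 in library 2. Below, a level is the share of a gene in the summed UMIs of a class, scaled to counts per 1e6 (CPM), and it does not scale with transcript length because the chemistry counts 3′ ends. Intervals cover counting error only.

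The genes of the gate are given first, as a description without a test. Pi16 lies at chr17:29317680-29330593 on the plus strand and Dpp4 at chr2:62330073-62412231 on the minus strand (GRCm38, GENCODE M21, whole gene including introns and UTRs). Pi16 stood at 368 CPM in library 1 and 1989 CPM in library 2, and Dpp4 at 330 CPM and 129 CPM, so Pi16 stood close to Dpp4 in library 1 and far above it in library 2. A median cell of library 1 held 4 UMIs of each gene. In library 2 the median was 8 UMIs of Pi16, with 176 at most, and 0 UMIs of Dpp4, with 8 at most. Both transcripts were found in 6 cells of library 1 and 37 of library 2, Pi16 alone in 2 and 71, and Dpp4 alone in 3 and 21. Library 2 was thus mostly a Pi16 population, as the plot of Pi16 against Dpp4 UMIs shows.

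**Figure D1:**
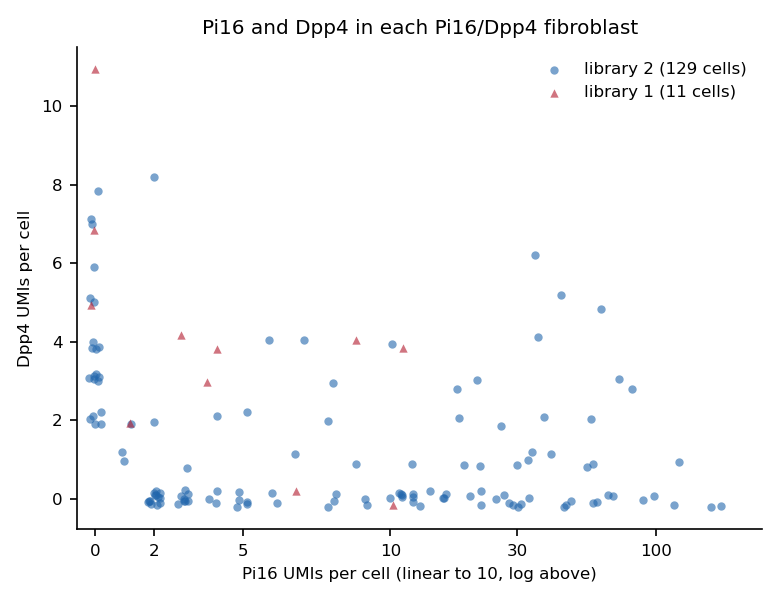
UMIs of Pi16 (horizontal axis, linear to 10 and log above) and Dpp4 (vertical axis, linear) in each of the 140 Pi16/Dpp4 fibroblasts. Small random offsets keep marks from covering each other. Triangles are the 11 cells of library 1 and circles the 129 cells of library 2. Cells of library 2 spread along the Pi16 axis up to 176 UMIs, while no cell exceeds 11 UMIs of Dpp4.

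The 7 fibroblast genes were detected together in 9 of 11 cells in library 1 and 90 of 129 in library 2, and 0 and 3 cells had only 4 of them. Clec3b, a plasminogen-binding matrix protein, was at 3560 and 3211 CPM in libraries 1 and 2, and Mfap5, a component of elastic microfibrils, at 2892 and 4448 CPM. Cd34, a sialomucin of adventitial fibroblasts, vessels and blood progenitors, was at 1585 and 1245 CPM. The remaining gate genes ranged from 288 CPM (Pdgfra, library 2) to 9001 CPM (Dcn, library 2). Just outside the gate, 3 cells of library 1 and 30 of library 2 had 1 UMI of Pi16 or Dpp4, against 0 and 20 just inside with 2 UMIs. A further 3 cells of library 2 failed on Tnmd, 1 cell of library 2 failed on Bglap2 and Ibsp, and 2 cells of library 1 and 1 of library 2 failed only on Ptprc.

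Dpp4 alone did not mark fibroblasts in these libraries. It had a UMI in 34.7% of B cells of library 1 and 27.5% of library 2, with B cells taken as cells with Ptprc and Cd79a or Cd79b (1648 and 570 cells). Pi16 had a UMI in 4.07% and 0.702% of the same B cells, whose median depth was 4901 and 4314 UMIs.

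Fibroblast markers outside the gate were abundant. Col3a1, a fibrillar collagen of soft connective tissue, stood at 18778 CPM in library 1 and 14089 CPM in library 2, Col1a1 at 6572 and 7175 CPM, Col1a2 at 8645 and 5956 CPM, and Lum, a collagen-binding proteoglycan, at 1615 and 1854 CPM. Osteoblasts, gated as described below, had more Col1a1 (85475 and 66336 CPM) and Col1a2 (63353 and 31784 CPM). They had less Col3a1 (136 and 642 CPM), and their Lum stood at 909 and 1368 CPM. Collagen I was thus abundant in both classes and higher in osteoblasts in each library.

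Markers of other cell types were low or absent, with a few exceptions, and each list was read whole. Of 14 endothelial markers, 5 were at 0 UMIs (Cdh5, Flt1, Emcn, Cldn5 and Tie1), and the list summed to 67.6 and 113 CPM, led in library 1 by the receptor kinase Tek at 60.1 CPM. Of 17 monocyte, macrophage and T cell markers, 11 were at 0, among them Csf1r, Cd68, C1qa and Cd3e, and the sum was 15 and 16 CPM. Of 14 mural markers, 5 were at 0 (including Rgs5 and Myh11), with a sum of 97.6 and 182 CPM led by Pdgfrb.

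Schwann cell markers (10 genes, Sox10 at 0) summed to 37.6 and 50.2 CPM, and skeletal muscle markers (14 genes, 7 at 0) to 30.0 and 57.9 CPM. The 12 B cell markers summed to 1209 and 1009 CPM, of which the transcription factor Ebf1, also a gene of fibroblasts, gave 1187 and 805 CPM; Cd79a had 7.51 and 31.2 CPM. Erythroid markers (12 genes) summed to 1202 CPM in library 1 and 401 CPM in library 2, led by the globin Hbb-bs at 714 and 129 CPM, and neutrophil markers (13 genes) to 436 and 39.6 CPM, led by S100a8 at 143 and 10.7 CPM. Erythroid and neutrophil transcripts were therefore higher in the cells of library 1. Cd79a did not differ beyond counting error (interval 0.19 to 41.9 CPM in library 1 and 22.4 to 42.3 CPM in library 2). In all other cells without Ptprc the erythroid sum was 114840 CPM in library 1 and 24916 CPM in library 2. Their part in the results below was not tested.

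The first comparison set the Pi16/Dpp4 fibroblasts against all other cells without Ptprc (3285 cells in library 1 and 1985 in library 2), with UMIs summed per library and class. Those other cells include fibroblasts of the same gate with fewer than 2 UMIs of Pi16 and Dpp4. In a quasi-likelihood fit (edgeR), with p adjusted by Benjamini and Hochberg over the genes tested, 345 of 13219 genes were higher in the Pi16/Dpp4 fibroblasts (2.61%) and 480 were lower (3.63%), with the gate genes left out. With the library as a block, 0 genes passed in either direction (2836 at an unadjusted p under 0.05, against 3382 without the block), although the 825 genes (6.24%) kept their direction. Without library 1 or without library 2 of the Pi16/Dpp4 fibroblasts the count was also 0, which leaves 1 sum in that arm, and without TMM scaling it was 0 as well. The genes named here came from cells picked by transcripts that move together with theirs, so the calls describe the picked cells.

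The genes with the largest excess over the other cells included matrix, membrane and guidance proteins. Fbn1, the main protein of extracellular microfibrils (chr2:125300594-125507993, minus strand), was at 3823 and 1734 CPM in libraries 1 and 2 and at 10.1 and 49.6 CPM in the other cells (log2 fold change 6.22, SE 1.05, adjusted p = 0.0284). Scara5, a ferritin scavenger receptor (chr14:65666403-65764826, plus strand), was at 571 and 355 CPM against 0.681 and 8.37 CPM (log2 fold change 6.41, SE 1.09, adjusted p = 0.0284). Cd248, the stromal membrane protein endosialin (chr19:5068078-5070682, plus strand), was at 991 and 627 CPM against 2.96 and 23.6 CPM (log2 fold change 5.65, SE 0.98, adjusted p = 0.0284). The libraries overlapped between groups for none of these genes, and the level in the other cells was higher in library 2 each time.

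Sema3c, a secreted guidance factor (chr5:17574281-17730268, plus strand), was at 811 and 362 CPM against 1.94 and 16 CPM (log2 fold change 5.73). The others of the 10 largest were Prdm8, a transcriptional regulator, at 90.1 and 38.8 CPM, the mitochondrial calcium-binding protein gene Efhd1 at 128 and 92.9 CPM, the glycosyltransferase gene Galnt16 at 143 and 68.5 CPM, Tmeff2 at 75.1 and 47.2 CPM, Tek at 60.1 and 47.2 CPM, and AW551984 at 75.1 and 32.0 CPM. Tek is the angiopoietin receptor and is best known from endothelium. Of the 14 endothelial markers, Cdh5, Flt1, Emcn, Cldn5 and Tie1 were at 0 in these cells, Tek and Plvap (7.51 and 56.3 CPM) made up most of the sum, and the other 7 had at most 3.04 CPM in library 2 and 0 in library 1. The part of endothelial RNA in Tek was not tested. Their log2 fold changes lay between 5.72 and 6.42 with adjusted p between 0.0275 and 0.0402.

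The genes lowest against the other cells were mostly known from cartilage and blood. The bounds here set 0 UMIs to a floor of 3 UMIs in each library, and the floor is high in library 1 because its Pi16/Dpp4 fibroblasts held few UMIs. Col9a1, a cartilage collagen, had 0 UMIs in the Pi16/Dpp4 fibroblasts against 127 and 589 CPM, at least 5.63-fold lower in library 1 and 258-fold in library 2. The cartilage genes Chad, Cnmd, Ucma, Matn1 and Scrg1 were likewise at 0, at least 1.01- to 2.93-fold lower in library 1 and 75.6- to 211-fold in library 2. The red cell gene Slc4a1 was at least 15.9- and 21.0-fold lower in libraries 1 and 2 and the neutrophil protease gene Ctsg at least 5.15- and 17.4-fold. Il17b was at least 40.5-fold lower in library 2, and library 1 gave no bound.

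The level of a few genes in each class is plotted for both libraries.

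**Figure D2:**
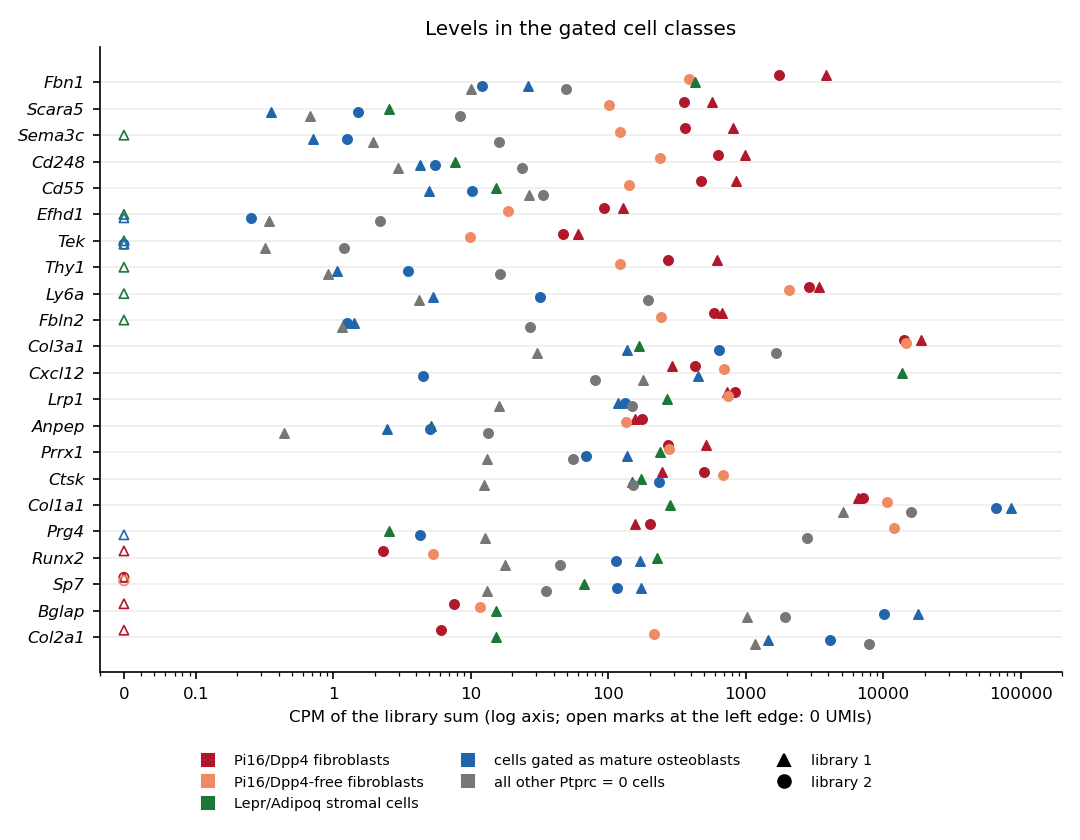
Levels in CPM on a log axis for named genes in the gated cell classes, with triangles for library 1 and circles for library 2; open marks at the left edge are 0 UMIs. Pi16/Dpp4 fibroblasts lie far above mature osteoblasts for Fbn1, Scara5, Sema3c and Cd248, and next to the fibroblasts without Pi16 and Dpp4 UMIs for Lrp1.

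The second comparison set the Pi16/Dpp4 fibroblasts against mature osteoblasts (105 cells in library 1 and 191 in library 2), the bone-forming end of the same tissue. These were cells without Ptprc or Tnmd that had at least 20 UMIs of Bglap2 and Ibsp and at least 3 of Alpl, Sp7, Ifitm5, Runx2 and Pth1r. Here 944 of 10756 genes were higher in the Pi16/Dpp4 fibroblasts (8.78%) and 715 were lower (6.65%) by the edgeR test, fitted together with chondrocytes. With the library as a block 1634 of these 1659 genes (15.4%) passed again, and without TMM scaling 1383 genes were higher and 512 lower. Without library 2 of the Pi16/Dpp4 fibroblasts 351 were higher and 293 lower. The osteoblasts were deeper, with medians of 27550 and 20691 UMIs, and also carried cartilage transcripts such as Col2a1 at 1447 and 4094 CPM.

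Genes at 0 UMIs in the osteoblasts led the higher side. Ccl11, the eosinophil chemoattractant eotaxin, was at 30.0 and 193 CPM, at least 28.3-fold higher in library 1 and 256-fold in library 2 (floor of 3 UMIs in each library). Tmeff2, Tek, Prdm8 and AW551984 were at least 56.7- to 85.0-fold higher in library 1 and 42.5- to 62.7-fold in library 2. Sema3c stood at 0.707 and 1.25 CPM in the osteoblasts (log2 fold change 8.58, SE 0.55, adjusted p = 0.000102), Fbln2, an elastic fiber fibulin, at 676 and 584 CPM against 1.41 and 1.25 CPM (8.38, SE 0.55, adjusted p = 0.000102), and Scara5 differed by 8.29 (SE 0.60, adjusted p = 0.000218). Efhd1 and Galnt16 differed by 8.63 and 8.48.

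On the lower side stood the osteocyte gene Dmp1 with 0 UMIs (at least 18.4- and 33.8-fold lower in libraries 1 and 2) and Car3, a carbonic anhydrase, at 0 and 0.761 CPM against 1381 and 1070.3 CPM (log2 fold change −11.00, SE 0.74, adjusted p = 0.000102). Chad, Matn1, Col9a1, Col13a1, Kcnk1, Insc and Panx3 were at 0, at least 4.70- to 10.9-fold lower in library 1 and 39.3- to 213-fold in library 2. The osteocalcin gene Bglap, at 0 and 7.61 CPM against 17981 and 10105 CPM, is a near copy of the gate gene Bglap2, which set its direction, and is given as a description. The osteogenic transcription factors Runx2 (0 and 2.28 CPM against 169 and 114 CPM) and Sp7 (0 against 174 and 116 CPM) helped to gate the osteoblasts, so their values there are a description. Against all other cells they were not gate genes, but those cells include the osteoblasts that the limit on Bglap2 and Ibsp left out. The values there are a description as well. Runx2 was lower by a log2 fold change of −4.20 (SE 0.95) and Sp7 at least 15.3-fold in library 2, with no bound from library 1.

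Gene lists were then read against these backgrounds. Over all genes tested, 2.61% were higher and 3.63% lower than in the other cells, and 8.78% and 6.65% than in osteoblasts. Each list count below stands beside these shares. Of 32 genes known from adventitial Pi16 fibroblasts of other organs, none a gate gene, 16 of 32 tested were higher and 0 lower than in the other cells, with a median log2 fold change of 4.14 against −0.24 over all genes tested. Against osteoblasts 23 of 31 were higher and 1, the sphingomyelinase gene Smpd3, was lower, with a median of 5.90 (4.77 with genes at 0 UMIs in osteoblasts set to the smaller bound of the libraries) against −0.06 over all genes. The list summed to 33387 and 21353 CPM in the Pi16/Dpp4 fibroblasts, 507 and 3030 CPM in the other cells and 2639 and 2241 CPM in osteoblasts. Fibroblasts of the same gate with 0 UMIs of Pi16 and Dpp4 held most of this sum too, at 15088 CPM in library 2 (127 cells) and 19818 CPM in library 1 (2 cells).

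Within this list, Cd55, an inhibitor of complement on the cell surface, was at 849 and 470.4 CPM and higher in both comparisons (log2 fold change 4.06 and 5.90), and so were Wnt2 at 60.1 and 32.0 CPM, the protein C receptor gene Procr at 158 and 79.2 CPM, Dact2 at 30.0 and 43.4 CPM and Il33, an alarmin cytokine, at 22.5 and 67.7 CPM. Igfbp6, the most abundant member at 4942 and 4284 CPM, was higher than in osteoblasts (7.70, SE 1.34, adjusted p = 0.00494) but missed the threshold against the other cells (4.25, adjusted p = 0.104). Igfbp5 showed the reverse (4.21, adjusted p = 0.0338 against the other cells and 3.37, adjusted p = 0.132 against osteoblasts).

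A list of 24 genes of more specialized fibroblasts, among them Col15a1, Penk, Mgp, Apoe and Vcam1, held 1 higher and 1 lower gene of 24 against the other cells, with a median log2 fold change of 1.87. It held 11 higher and 1 lower of 19 against osteoblasts, with a median of 2.9. Both medians also stood above those over all genes tested (−0.24 and −0.06). Its most abundant gene was Mgp, an inhibitor of calcification, at 961 and 2220 CPM.

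Elastic fibers give stretch to skin, vessels and fascia. Of 20 elastic fiber genes tested, 7 were higher and 0 lower than in the other cells, and 12 were higher and 2 lower than in osteoblasts. Efemp1 (fibulin 3) was at 195 and 172 CPM against 1.16 and 4.90 CPM in the other cells (log2 fold change 5.65, SE 0.78, adjusted p = 0.0275), and Loxl1, a crosslinker of elastin, at 473 and 471 CPM against 4.81 and 35.4 CPM (4.31, SE 0.88, adjusted p = 0.0338). Elastin itself, Eln, at 255 and 661 CPM, was higher than in osteoblasts (7.45, SE 0.76, adjusted p = 0.000335) and missed the threshold against the other cells (adjusted p = 0.0916). The lower genes against osteoblasts were Lox, the lysyl oxidase of collagen and elastin (−2.67, adjusted p = 0.00676), and Emilin1 (−1.37, adjusted p = 0.0329).

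Among collagens, 2 of 24 were higher and 2 lower than in the other cells, and 12 were higher and 5 lower than in osteoblasts. The list summed to 41537 and 33212 CPM. In fibroblasts of the same gate with 0 UMIs of Pi16 and Dpp4 the sum was 35074 and 38957 CPM. Col14a1, a fibril-associated collagen of fasciae and tendon sheaths, was at 1074 and 662 CPM against 0 and 3.76 CPM in osteoblasts (8.19, SE 1.10, adjusted p = 0.00144), and Col5a3 and the basement membrane gene Col4a1 were higher in both comparisons. The cartilage and bone collagen gene Col11a1, at 0 and 3.81 CPM, was lower in both (−8.39 and −10.04). Proteoglycan genes gave 2 higher and 2 lower of 20 against the other cells and 8 higher and 5 lower of 20 against osteoblasts. Podn at 113 CPM in both libraries and Vcan (versican) at 676 and 344 CPM were higher in both comparisons, and the tendon and cartilage gene Fmod, at 0 and 6.85 CPM, was lower in both.

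For hyaluronan metabolism the counts were 1 higher and 1 lower of 12 against the other cells and 5 higher and 1 lower of 11 against osteoblasts, with the UDP-glucose dehydrogenase gene Ugdh most abundant at 541 and 250.4 CPM. Proteases and their inhibitors gave 6 higher and 4 lower of 40, and 11 higher and 8 lower of 40. The shares over all genes were 2.61% and 3.63%, then 8.78% and 6.65%. The aggrecanase genes Adamts15 (173 and 92.1 CPM) and Adamts5 (361 and 298 CPM) were higher in both comparisons, and the collagenase gene Mmp13, at 7.51 and 0 CPM, was lower in both (−7.99 and −9.69).

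Genes of innate immunity were among the higher ones, but complement genes were not particular to these cells. They summed to 2569 and 2854 CPM in the Pi16/Dpp4 fibroblasts of libraries 1 and 2. In fibroblasts of the same gate with 0 UMIs of Pi16 and Dpp4 the sum was 4077 and 2912 CPM. Of 15 complement genes 7 were higher and 0 lower than in the other cells, and of 14 tested against osteoblasts 10 were higher and 2 lower. Cfb (complement factor B) was at 105 CPM in both libraries against 0.561 and 8.37 CPM (4.35, SE 1.03, adjusted p = 0.0419), Serping1, the C1 inhibitor gene, at 616 and 1126 CPM (3.85, SE 0.92, adjusted p = 0.0423) and C1s1 at 255 and 209 CPM (4.27, SE 1.01, adjusted p = 0.0419). The regulator Cd59a was lower than in osteoblasts. Chemokine and cytokine genes gave 4 higher and 0 lower of 26, and 8 higher and 1 lower of 23. Csf1, the macrophage growth factor, at 143 and 118 CPM, and Ackr2, a scavenging chemokine receptor, at 52.6 and 22.8 CPM, were higher in both comparisons, and the osteoclast factor gene Tnfsf11 had 0 UMIs and was lower than in osteoblasts (adjusted p = 0.0272).

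Signaling genes were found on both sides. In the WNT pathway, 9 of 36 genes were higher and 2 lower than in the other cells, and 11 of 33 were higher and 7 lower than in osteoblasts. The secreted WNT binders split: Sfrp4 at 1675 and 457 CPM (4.89, SE 1.02, adjusted p = 0.0340 against the other cells) and Sfrp2 at 165 and 52.5 CPM were higher in both comparisons, whereas Frzb, at 0, and Wif1, at 0 and 0.761 CPM, were lower in both. The ligand gene Wnt10b and the receptor gene Fzd4 were higher in both, and the inhibitor gene Dkk1, at 0, was lower than in osteoblasts.

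In the BMP and TGF-β pathway, 5 of 41 genes were higher and 0 lower than in the other cells, and 9 of 37 were higher and 4 lower than in osteoblasts. The receptor genes Tgfbr2 (428 and 334 CPM) and Acvrl1 (75.1 and 63.9 CPM) and the secreted activin-binding family gene Fstl1 (6354 and 4244 CPM) were higher in both comparisons. The ligand genes Tgfb1 and Bmp3 were lower than in osteoblasts (−2.31 and −3.73). Insulin-like growth factor genes gave 2 higher and 0 lower of 12, and 4 higher and 1 lower of 10, with the ligand Igf1 at 503 and 728 CPM higher than in osteoblasts (5.48, SE 0.77, adjusted p = 0.00185).

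Of 48 transcription factors known from fibroblasts 5 were higher and 0 lower than in the other cells, and of 45 tested against osteoblasts 19 were higher and 1, Creb3l1, was lower. The list summed to 7211 and 5224 CPM. In fibroblasts of the same gate with 0 UMIs of Pi16 and Dpp4 the sum was 8476 and 5973 CPM. Ebf2, a helix-loop-helix factor, was at 278 and 108 CPM against 1.48 and 6.62 CPM (5.22, SE 0.83, adjusted p = 0.0284), and Creb5, Hic1 and Nfib were higher in both comparisons. Osr1, a zinc finger factor of limb connective tissue, at 173 and 118 CPM, was higher than in osteoblasts (4.92, SE 0.52, adjusted p = 0.000374). Of 23 osteochondrogenic factors 0 were higher and 6 lower than in the other cells, and of 20 tested against osteoblasts 2 were higher and 8 lower. These counts are a description, since the limit on Bglap2 and Ibsp and the osteoblast gate bear on osteogenic factors too. Mef2c, at 7.51 and 22.8 CPM, was lower in both.

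The share of each list that passed the test is plotted for both comparisons, without the marker lists of other cell types.

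**Figure D3:**
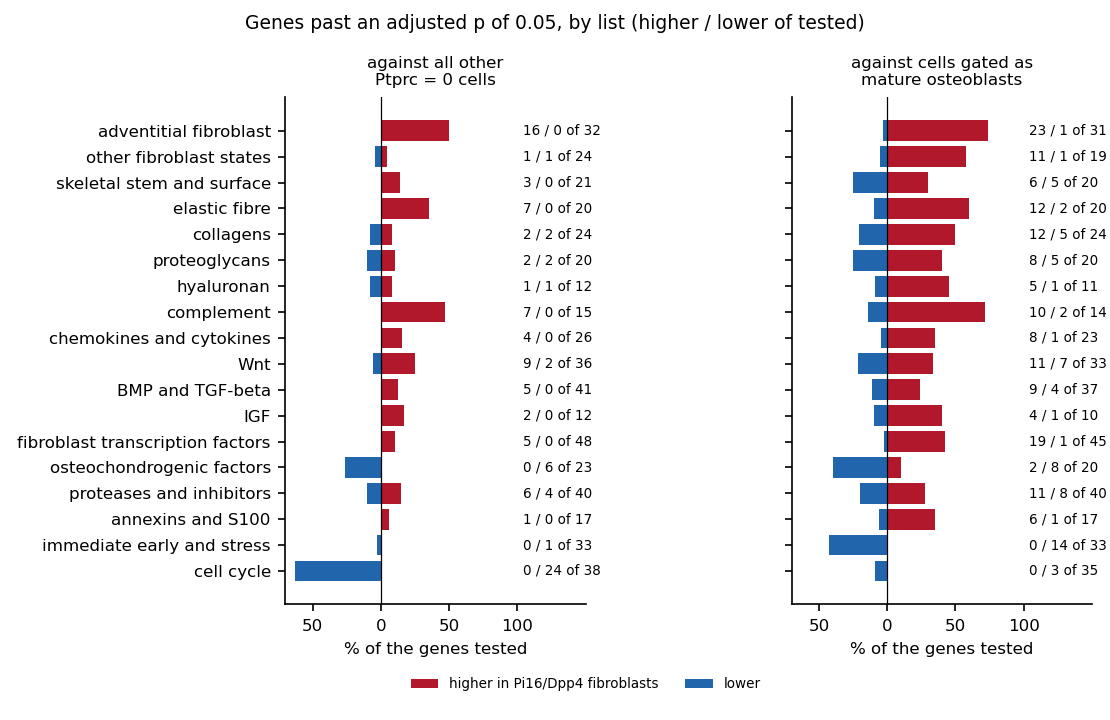
For each gene list, the percentage of its tested genes that were higher (right of 0) and lower (left of 0) in Pi16/Dpp4 fibroblasts at an adjusted p under 0.05, against all other cells without Ptprc and against mature osteoblasts, with the counts printed beside the bars. Marker lists of other cell types, such as osteoblasts and chondrocytes, are not drawn. The adventitial list stands at 16 of 32 and 23 of 31 genes higher, and the cell cycle list has 0 higher genes in both.

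The limit on Bglap2 and Ibsp in the Pi16/Dpp4 fibroblasts, and the genes that picked the osteoblasts, set the direction of other osteoblast markers as well, so their counts are a description. Osteoblast markers gave 0 higher and 11 lower of 16 against the other cells and 0 higher and 10 lower of 10 against osteoblasts once gate genes were left out, and their sum was 203 and 124 CPM. Chondrocyte markers gave 0 higher and 14 lower of 17 in both comparisons (sum 406 and 331 CPM, of which Comp gave 368 and 288 CPM), and tenocyte markers 0 higher and 2 lower of 9, then 1 higher and 4 lower of 8 (sum 646 and 495 CPM, also led by Comp). For markers of Lepr stromal cells the counts were 0 and 1 of 15, then 1 and 3 of 12.

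Among the remaining lists, annexin and S100 genes gave 1 higher and 0 lower of 17, then 6 higher and 1 lower of 17, with S100a6, a calcium-binding protein gene, at 7263 and 10310 CPM. Immediate-early and stress genes gave 0 higher and 1 lower (Btg2) of 33 against the other cells and 0 higher and 14 lower of 33 against osteoblasts, where Egr1 was at 90.1 and 184 CPM against 704 and 526 CPM (−2.47, SE 0.48, adjusted p = 0.00840). Such genes respond to tissue digestion, and whether digestion acted alike on both classes was not tested.

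Markers of other tissues and of blood were also counted, first against the other cells and then against osteoblasts. Mural genes gave 0 higher and 1 lower of 10, then 0 and 1 of 5, muscle genes 0 and 9 of 12, then 0 and 0 of 5, and Schwann cell genes 0 and 0 of 4, then 0 and 1 of 4. Endothelial genes gave 1 higher (Tek) and 0 lower of 6, then 2 higher (Tek and Plvap) and 0 lower of 3. Among B cell genes 0 were higher and 11 lower of 12, then 2 higher (Ebf1 and Igll1) and 0 lower of 7, and among erythroid genes 0 and 7 of 12, then 0 and 0 of 12. Neutrophil genes gave 0 and 10 of 13, then 0 and 0 of 11, and monocyte and T cell genes 0 and 4 of 9, then 0 and 0 of 2.

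Skeletal stem cell markers were split. Of 21 surface and lineage genes tested against the other cells, 3 were higher and 0 lower, and of 20 tested against osteoblasts 6 were higher and 5 lower. The 3 were Thy1 (CD90) at 623 and 272 CPM against 0.921 and 16.3 CPM (5.41, SE 1.15, adjusted p = 0.0347), Pdpn (podoplanin) at 218 and 187 CPM against 1.58 and 13 CPM (4.55, SE 0.89, adjusted p = 0.0330), and the limb mesenchyme factor Prrx1 at 518 and 273 CPM against 13 and 55.4 CPM (3.21, SE 0.73, adjusted p = 0.0396). Prrx1 passed in 6 of 14 alternative settings (adjusted p between 0.00159 and 0.152), against 10 of 14 for Thy1 and for Pdpn. Ly6a, which encodes the stem cell antigen Sca-1 (chr15:74994877-74998031, minus strand), was at 3403 and 2904 CPM against 4.21 and 195 CPM and missed the threshold (4.76, SE 1.42, adjusted p = 0.0776), with the other cells of library 2 nearer to the Pi16/Dpp4 fibroblasts than those of library 1. Of the Ly6a UMIs in the other cells, 29 of 210 in library 1 and 2300 of 4214 in library 2 lay in fibroblasts of the same gate with 0 UMIs of Pi16 and Dpp4.

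Lrp1, a large endocytic receptor (chr10:127538161-127621148, minus strand), was at 729 CPM in library 1 and 841 CPM in library 2. The other cells stood at 16 and 149 CPM (log2 fold change 3.03, SE 0.91, adjusted p = 0.0794) and osteoblasts at 119 and 133 CPM (2.21, SE 0.39, adjusted p = 0.00509). Anpep, the aminopeptidase CD13 (chr7:79821803-79861059, minus strand), was at 158 and 176 CPM, against 0.441 and 13.3 CPM in the other cells (4.41, SE 1.18, adjusted p = 0.0586) and 2.47 and 5.02 CPM in osteoblasts (5.01, SE 0.58, adjusted p = 0.000579). Both surface markers were thus higher than in osteoblasts and missed the threshold against the mixed remainder. That remainder includes fibroblasts of the same gate with 0 UMIs of Pi16 and Dpp4. These fibroblasts held 6 of its 22 Anpep UMIs in library 1 and 152 of 288 in library 2. For Lrp1 they held 14 of 799 and 828 of 3219.

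The share of cells with a UMI gives the same genes cell by cell. Lrp1 was detected in 100% and 96.9% of Pi16/Dpp4 fibroblasts, 85.7% and 80.6% of osteoblasts and 1.82% and 1.58% of B cells, and at an equal depth of 2000 UMIs the expected shares were 75.2% and 76.4%, 22.8% and 24.0%, and 0.29% and 0.62%. Anpep was detected in 72.7% and 69.0%, and at 2000 UMIs in 23.4% and 29.6%, against 0.74% and 1.21% of osteoblasts. For Lrp1 the shares in the fibroblasts lay far above those in the B cells. Anpep stood at 0.05 and 1.31 CPM in the B cells of libraries 1 and 2. The part of free RNA in these values was not tested. Cells below 2000 UMIs (0 and 5 Pi16/Dpp4 fibroblasts, 0 osteoblasts, 23 and 9 B cells) were left out.

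The remaining stem cell genes did not pass against the other cells. Cxcl12, the niche chemokine, was at 293 and 429 CPM (log2 fold change 1.08, adjusted p = 0.340), Ctsk, a protease used to trace periosteal stem cells, at 248 and 502 CPM (2.04, adjusted p = 0.213), Lepr at 7.51 and 4.57 CPM (−1.44, adjusted p = 0.239) and Nes at 0 and 1.52 CPM (adjusted p = 0.518). Acta2 and Gli1 gave adjusted p of 0.785 and 0.607. Adipoq had 0 UMIs (adjusted p = 0.0750), Pparg gave an adjusted p of 0.960, and Sox9 and Scx gave −3.28 (adjusted p = 0.0541) and −5.02 (adjusted p = 0.0893). Against osteoblasts, Lepr (−3.21, adjusted p = 0.0214), Nes (−3.89, adjusted p = 0.0127), Sox9 (−3.03, adjusted p = 0.00211) and Scx (−6.09, adjusted p = 0.000826) were lower, Thy1, Pdpn and Ly6a were higher, and Prrx1, Cxcl12, Ctsk, Acta2 and Gli1 did not pass. Osteoblast Cxcl12 was at 451 CPM in library 1 and 4.52 CPM in library 2. Without the osteoblasts of library 1 the log2 fold change was 5.90, from a fit with 1 osteoblast sum.

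The next comparison class was fibroblasts of the same gate with 0 UMIs of Pi16 and Dpp4 and not both Lepr and Adipoq. There were 2 of them in library 1 and 127 in library 2, too few in library 1 for a replicated test, so library 2 is described alone, with counting intervals and no p. The median depth was 8512 UMIs against 9662 UMIs in the Pi16/Dpp4 fibroblasts, and the part of depth in missing Pi16 was not tested. Of 3025 genes at 50 CPM or more in either class, 94 were at least 2-fold higher (3.11%) and 86 at least 2-fold lower (2.84%) in the Pi16/Dpp4 fibroblasts. The genes named below were ranked by the bound of their ratio nearest to 1, a rule set after the planned test could not be fitted.

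Fbn1 led the higher side, at 1734 CPM against 386 CPM (ratio 4.49, 95% interval 4.05 to 4.99). Efemp1 was at 172 against 37.5 CPM (4.59, 3.29 to 6.55), Scara5 at 355 against 102 CPM (3.5, 2.84 to 4.33), Ccl11 at 193 against 50.8 CPM (3.79, 2.83 to 5.14), Cd55 at 470.4 against 142 CPM (3.32, 2.78 to 3.98) and Il33 at 67.7 against 14.3 CPM (4.75, 2.77 to 8.67). These names recur from the comparisons with other cells, and those comparisons use the same 129 cells. Ifi27l2a, an interferon-induced gene, was at 570.1 against 189.9 CPM (3.0, 2.57 to 3.51), and Efhd1, Gngt2, Basp1, Adgrd1, Lims2, G0s2 and Uchl1 had ratios between 3.69 and 5.43. Epyc, a small proteoglycan gene, had a ratio of 5.25, but 33.3% of its UMIs came from 1 cell and it was at 0 in library 1. Of the adventitial list, 11 of 25 genes were at least 2-fold higher and 0 lower, and of the elastic fiber list 6 of 17 and 0. The list of specialized fibroblasts had 0 higher and 1 lower of 14. Collagens gave 0 higher and 2 lower of 19, complement genes 1 and 3 of 12, and fibroblast transcription factors 0 and 2 of 26. Chemokines and cytokines gave 4 and 0 of 9, hyaluronan genes 3 and 0 of 7, and BMP and TGF-β genes 2 and 0 of 17. Proteases and inhibitors gave 3 and 4 of 25, proteoglycans 1 and 3 of 16, WNT genes 1 and 1 of 8, and insulin-like growth factor genes 0 and 1 of 7.

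The lower side held lubricin and genes of cartilage, tendon and blood, often from few cells. Prg4, lubricin of joint surfaces and sheaths (chr1:150449412-150466165, minus strand), was at 202 against 11909 CPM, 59.0-fold lower (52.3 to 66.9), and was found in 47 of the 127 cells, with 23.5% of the UMIs in 1 cell, and in 36 of the 129 Pi16/Dpp4 fibroblasts. Msmp had 1 UMI against 1231, but 71.6% of these lay in 1 of 3 cells, and Chad had 0 UMIs against 194, of which 54.1% lay in 1 of 15 cells. The hemoglobin genes Hbb-bt and Hbb-bs came mainly from 1 cell too, with 57.7% and 54.1% of their UMIs, and 1 of the 127 cells had 60.0% blood transcripts. Rgs5, a pericyte gene, had 0 UMIs against 156 in 8 cells. Fmod, Cilp2, Angptl7, Col2a1, Clu, Cytl1 and Clic5 were between 26.7- and 73.8-fold lower. Of the UMIs in the comparison cells, 1 cell held 63.0% for Col2a1, 53.0% for Cytl1, 42.6% for Clic5 and 58.3% for Rgs5, and between 18.6% and 30.7% for the others. Lrp1 (841 against 738 CPM), Anpep (176 against 135 CPM) and Prrx1 (273 against 275 CPM) stood close to each other in both fibroblast classes.

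**Figure D4:**
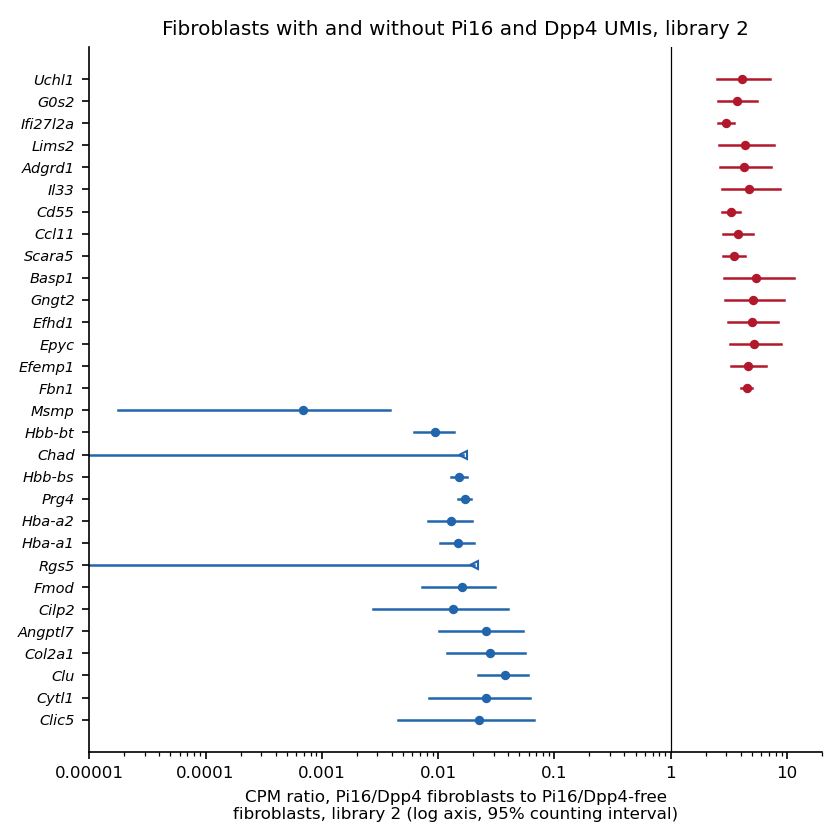
Ratio of the CPM of Pi16/Dpp4 fibroblasts to that of fibroblasts with 0 UMIs of Pi16 and Dpp4 in library 2, on a log axis, with 95% counting intervals; red genes are higher and blue genes lower, and open triangles mark 0 UMIs in the Pi16/Dpp4 fibroblasts, with the upper bound of the ratio. The higher genes lie between 3.0 and 5.43, and Prg4 has a narrow interval far below 1.

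Within library 2 the same genes were followed along the number of Pi16 and Dpp4 UMIs, as a description of cells that also differed in depth (median 8512 UMIs at 0, 7381 at 1, 7918 at 2, 9653 at 3 to 9 and 11234 at 10 or more). Fbn1 was at 386 CPM at 0 UMIs, 620.5 CPM at 1, 589 CPM at 2, 1209 CPM at 3 to 9 and 2377 CPM at 10 or more. Cd55 was at 142, 103, 162, 296 and 663 CPM over the same steps, and Sema3c at 122, 141, 177, 282 and 463 CPM. Cells just outside the gate with 1 UMI and just inside with 2 UMIs had overlapping intervals for these genes. Of the 203600 UMIs in the 20 cells at 2, 1 cell held 54800. Fbn1 stood higher in both of these steps than at 0 beyond counting error (interval 351 to 424 CPM at 0, 519 to 736 CPM at 1 and 489 to 705 CPM at 2), and the 3 genes stood higher still at 10 or more. Prg4 broke differently, with 11909 CPM at 0 and between 68.0 and 309 CPM in the other steps. Library 1 held 2, 3, 7 and 4 cells at 0, 1, 3 to 9 and 10 or more UMIs. In that order Fbn1 was at 928, 2453, 4592 and 2699 CPM. It was lower at the last step beyond counting error (interval 4132 to 5090, then 2279 to 3174 CPM). Cd55 was at 202, 575.5, 544 and 1294 CPM, and Sema3c at 202, 848, 835 and 776.5 CPM. Only Cd55 of the 3 was thus highest at 10 or more there. Prg4 was highest at 1 UMI in library 1, with 1969 CPM against 605 CPM at 0. The genes followed over these steps, and over the kinds of transcript, were chosen after their values were seen.

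Other genes differed by which of the transcripts a cell held. Mgp was at 3381 CPM in the 71 cells of library 2 with Pi16 alone, 1205 CPM in the 37 with both and 500.5 CPM in the 21 with Dpp4 alone. Cxcl12 was at 581, 281 and 228 CPM in that order. Its intervals overlapped between cells with both and cells with Dpp4 alone (229 to 340 and 173 to 296 CPM). Igfbp6 ran the other way, at 2604, 5655 and 6918 CPM. Il33 was at 77.8 and 86.4 CPM in the cells with Pi16 and at 12.0 CPM (3 UMIs) in those with Dpp4 alone, and Fbn1 was highest with both at 2541 CPM, against 1436 and 1365 CPM. The adventitial list summed to 16022, 28958 and 24887 CPM in library 2 and the specialized list to 6918, 3211 and 2466 CPM. Lrp1 was at 951, 878 and 480.4 CPM there and Anpep at 192, 138 and 188 CPM. Cd79a, the B cell gene, was at 7.21, 70.2 and 40.0 CPM in library 2, and its part in the cells called on Dpp4 was not tested.

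Library 1 held 2 cells with Pi16 alone, 6 with both and 3 with Dpp4 alone. In that order Mgp was at 4123, 111 and 417 CPM, Cxcl12 at 1010.5, 191 and 43.9 CPM and Igfbp6 at 1213, 4552 and 7505 CPM. The adventitial list summed to 15683, 33155 and 43320 CPM, highest with Dpp4 alone where library 2 was highest with both. Lrp1 was at 889, 573 and 856 CPM, so the low value with Dpp4 alone in library 2 was not seen in library 1. Anpep was at 162, 79.6 and 263 CPM. Il33 had 1 UMI in each kind (40.4, 15.9 and 21.9 CPM), too few to show an order.

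**Figure D5:**
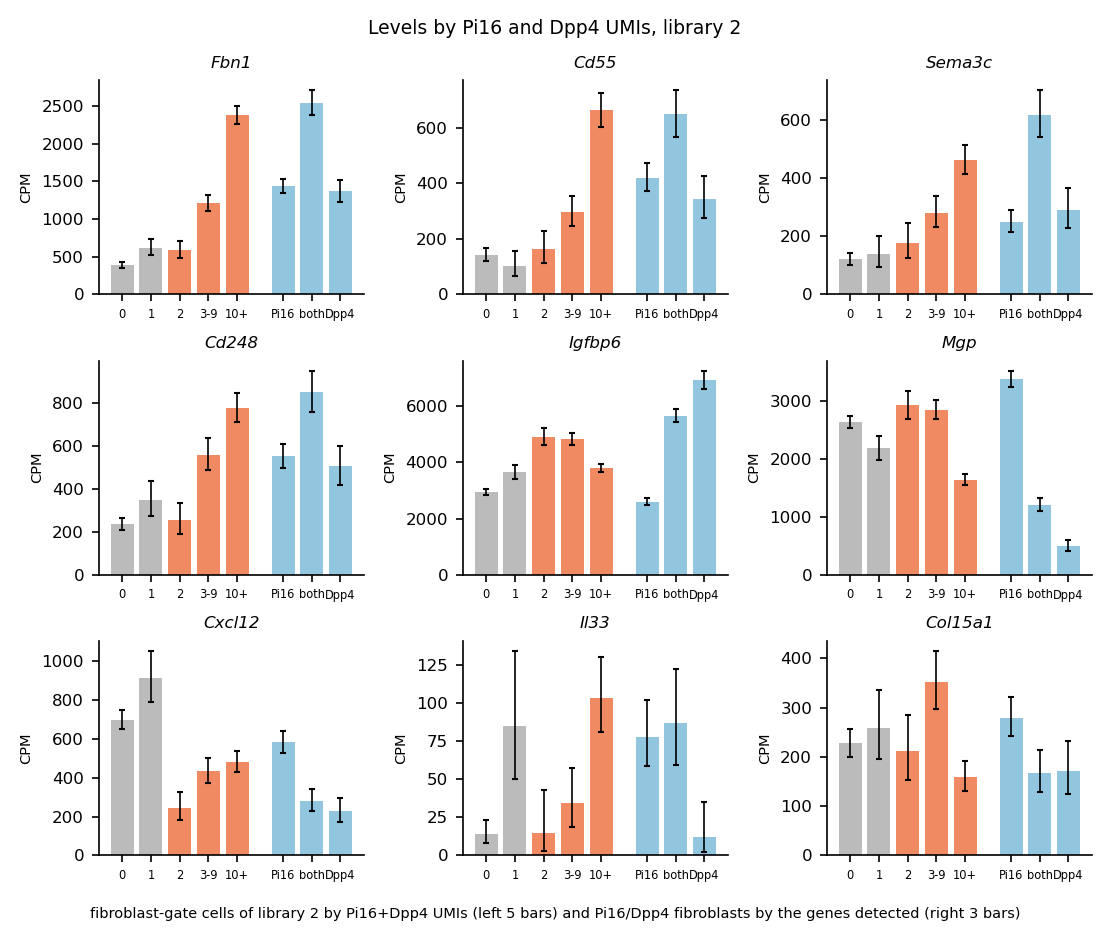
Levels in CPM of 9 genes in library 2, with 95% counting intervals; the left 5 bars split the fibroblast gate by Pi16 plus Dpp4 UMIs (gray is outside the Pi16/Dpp4 fibroblasts), and the right 3 bars split the Pi16/Dpp4 fibroblasts into cells with Pi16 only, both and Dpp4 only. Fbn1, Cd55 and Sema3c are highest at 10 or more UMIs, and Mgp is highest with Pi16 alone.

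Lepr/Adipoq stromal cells, the marrow-type stroma, were found almost only in library 1 (48 cells, against 3 in library 2), so this comparison rests on 11 Pi16/Dpp4 fibroblasts and has no replicate. Of 4428 genes, 835 were at least 2-fold higher (18.9%) and 1043 at least 2-fold lower (23.6%). Col3a1 was at 18778 against 166 CPM (ratio 113, 88.4 to 147) and Gsn, the actin-severing gelsolin gene, at 8420 against 63.9 CPM (132, 88.8 to 205). Igfbp6 had 658 UMIs against 1, S100a4 277 against 2, and Ly6a 453 and Sema3c 108 against 0. On the other side Cxcl12 was at 293 against 13707 CPM (46.8-fold lower, 34.2 to 65.9), the lipase gene Lpl at 173 against 4782 CPM (27.7-fold, 18.4 to 43.8) and Hp, the haptoglobin gene, had 2 UMIs against 1257. Tnc, Esm1, Agt and Rspo3 had 0 UMIs against 521, 316, 293 and 287. The hemoglobin genes were low as well, with Hbb-bs at 714 against 22892 CPM and Hbb-bt at 165 against 7302 CPM, and 1 Lepr/Adipoq cell had 41.7% blood transcripts. Their part in the counts was not tested. Lrp1 stood at 729 against 268 CPM, Anpep at 158 against 5.11 CPM and Prrx1 at 518 against 238 CPM.

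The Pi16/Dpp4 fibroblasts of the libraries differed from each other beyond counting error in many genes. Of 1887 genes at 100 CPM or more, 459 were higher in library 1 and 365 higher in library 2 by intervals that cover counting error only. Higher in library 1 were the blood genes S100a8 (13.4-fold) and Hbb-bs (5.51-fold), but also Sema3e at 203 against 24.4 CPM, the imprinted transcript H19 at 406 against 70.8 CPM, Sfrp4 (3.67-fold, 3.13 to 4.28) and the proteoglycan gene Prelp at 1022 against 285 CPM. Higher in library 2 were the chemokine genes Ccl2 (0 against 401 CPM), Ccl7 (0 against 178 CPM), Cxcl1 (0 against 158 CPM) and Cxcl14 (45.1 against 501 CPM), the early response genes Fos (90.1 against 801 CPM) and Ier3 (15 against 363 CPM), and Apoe (30.0 against 264 CPM). In library 2, 1 cell held 49.1% of the Ccl2 UMIs, found in 11 of 129 cells, 43.5% of the Apoe UMIs and 32.8% of the Cxcl14 UMIs, while library 1 had only 11 cells in all. With 1 library of each kind, a difference of animals, of preparation and of cells cannot be told apart.

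The 129 cells of library 2 also differed among themselves. Over the 701 genes at 200 CPM or more, the spread beyond counting, given as a squared coefficient of variation, was 34.0 for Ccl2, found in 11 cells with 49.1% of its UMIs in 1, and 30.7 for Timp1, a metalloproteinase inhibitor gene, with 57.3% in 1 cell. The histone gene Hist1h2ap had 39.5, with 49.5% in 1 cell. Cxcl14 had 15.7, in 27 cells, with 32.8% of its UMIs in 1 cell. Broader patterns came from Myoc (6.29, in 68 cells), Sfrp4 (6.04), Mgp (4.86, in 90 cells), Comp (4.66) and Eln (4.06).

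Transcripts of dividing cells were found in few of the cells. Mki67 or Top2a, genes of dividing cells, had a UMI in 1 of 11 cells of library 1 (9.09%, 95% exact interval 0.23% to 41.3%) and 9 of 129 of library 2 (6.98%, 3.24% to 12.8%), close to the 8 of 127 fibroblasts with 0 UMIs of Pi16 and Dpp4 (6.30%, 2.76% to 12.0%) within counting error. Osteoblasts had 38.1% and 13.1%, at medians of 27550 and 20691 UMIs, and at 2000 UMIs the expected share with Mki67 was 1.53% and 1.06% in Pi16/Dpp4 fibroblasts, 4.18% and 1.99% in osteoblasts and 29.7% and 16.5% in B cells. Of 38 cell cycle genes 0 were higher and 24 lower than in the other cells, which include dividing blood cells, and 0 were higher and 3 lower of 35 against osteoblasts.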

How the data were processed

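Cells of 2 periosteum libraries (10x Genomics) were profiled as UMI counts. The authors deposited raw counts per gene and barcode (32288 features, among them EGFP and tdTomato reporter sequences), made with Cell Ranger 6.1.2 on mm10 per the submitters' processing notes; the annotation release is not given in the sources used here. Samples were grouped by their labels. Cells were filtered and gated as described above, no doublet caller was run, and UMIs were summed per library and class. Sums were tested with edgeR 4.0.16 in R 4.3.3 (limma 3.58.1; TMM, filterByExpr, quasi-likelihood) and, as an alternative, DESeq2 1.42.0, with a threshold of 0.05 and at least 5 cells per library in each class. The classes without Pi16 and Dpp4 and with Lepr and Adipoq fell under that minimum in 1 library and are described by exact 95% intervals. Other alternatives concerned scaling, filters, gate limits, single libraries and a library block, since sums of the same library pair. The code was tested on simulated data.

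Named genes were the 10 largest and 10 lowest changes among genes past the threshold that moved the same way in both libraries, reached 50 CPM and carried an ordinary symbol, then up to 4 genes per list with no limit on level, and a fixed set of skeletal stem cell genes; further list genes were chosen after their values were seen. Positions are from GENCODE M21 (32235 of 32285 gene IDs matched). The members and the 30 gene lists, which share some genes, were chosen with earlier results of these data known. Some genes that met the rule are not reported here.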

Additional observations from a re-analysis of the deposited data

Results flagged for a closer look

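Reporter sequences carried signal although the labels call the mice wild type. EGFP had 6837 UMIs in the cells of library 2 that passed quality control and 0 in library 1. Pi16/Dpp4 fibroblasts held 7 of these UMIs (5.33 CPM), against 488 CPM in osteoblasts and 457 CPM in chondrocytes of library 2. tdTomato had 1482 UMIs in library 1 and 4627 in library 2, of which Pi16/Dpp4 fibroblasts held 0 and 718 (547 CPM in library 2), against 345 CPM in fibroblasts with 0 UMIs of Pi16 and Dpp4 and 17.3 and 43.6 CPM in B cells of libraries 1 and 2.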

How the results depend on the processing

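Against all other cells without Ptprc, the genes higher and lower (345 and 480) became 672 and 797 with DESeq2, 175 and 309 without the filter on low counts, and 0 and 0 without TMM factors (3048 at an unadjusted p under 0.05) or with the library as a replicate block, where sums of the same library are paired. Leaving out one sum gave 0 to 1769 higher and 0 to 1552 lower genes. Both counts were 0 without either sum of the Pi16/Dpp4 fibroblasts (2350 and 2351 at an unadjusted p under 0.05); they were 152 and 320 without library 1 of the other cells and 1769 and 1552 without library 2. With other cells limited to those with stromal transcripts, 655 of 686 genes tested again kept their direction, and 349 passed. The median over all genes moved from −0.24 to 0.08 without TMM and, against osteoblasts, from −0.06 to 0.32. Against osteoblasts, leaving out one sum gave 351 to 686 higher and 293 to 462 lower genes, and the block gave 1174 and 1009. Fbn1 passed against the other cells in 10 of 14 alternatives (highest adjusted p 0.0919) and Sema3c against osteoblasts in 13 of 13. Lrp1 passed against osteoblasts in 12 of 13 and Anpep in 13 of 13. The share in library 2 was 7.52% at 1 UMI of Pi16 and Dpp4 and 4.45% at 4. Among the skeletal stem cell genes, some log2 fold changes that missed the threshold turned sign. Against other cells with stromal transcripts Cxcl12 was −1.49 and Gli1 −0.35. Pparg was −0.006 with DESeq2, −0.013 without the filter, −0.11 and −7.777 at limits of 1 and 4 UMIs, and between −8.11 and 0.34 when one sum was left out. Acta2 lay between −11.50 and 3.18 (3.18 without the other cells of library 2, which leaves 1 sum in that arm). Against osteoblasts, leaving out one sum gave −0.70 to 5.90 for Cxcl12. Its value was 5.90 without library 1 of the osteoblasts and −0.288 without library 2 of the Pi16/Dpp4 fibroblasts. The range was −0.31 to 1.07 for Ctsk, −7.05 to 1.91 for Acta2 and −1.04 to 0.16 for Gli1. Each of these fits had 1 sum in 1 arm. The cause was not tested. The tests against fibroblasts with 0 UMIs of Pi16 and Dpp4 and against Lepr/Adipoq cells, and their alternatives, were not run.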

Other observations

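Xist and Y-linked transcripts were both present in the Pi16/Dpp4 fibroblasts of each library. Xist, from the inactive X chromosome, stood at 383 CPM in library 1 and 138 CPM in library 2. The Y-linked genes Ddx3y and Eif2s3y stood at 22.5 and 30.0 CPM in library 1 (3 and 4 UMIs) and 27.4 and 19.8 CPM in library 2. In B cells Ddx3y was at 20.1 and 24.9 CPM and Eif2s3y at 35.9 and 52.8 CPM in libraries 1 and 2. The part of free RNA in these values was not tested.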
